A study of Mus musculus with 6 samples.

Results

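Granulocyte progenitors of the fetal liver were read out in a tissue section from wild-type mice at embryonic day 14.5 (E14.5). A cell was counted as a granulocyte progenitor when it held at least 5 transcripts of Elane, Ctsg and Fcnb together, and 2691 of the 117329 segmented cells of the section met this rule, a share of 2.29% (95% exact binomial interval 2.21 to 2.38). The series held 521938 cells in 6 sections, 1 per condition. The E14.5 liver was formalin-fixed and paraffin-embedded, cut at 5 µm and imaged on the Xenium platform, which decodes single RNA molecules in place with gene-specific probes, here for 477 genes. The mice were C57BL/6 animals from the Jackson laboratory that carried no engineered allele and received no agent. The number of embryos in the section is not given in the sources used here. The section fell into 5 separate pieces of tissue with at least 1000 cells each, and whether these are lobes of 1 liver or come from several livers is not given either. Bone marrow of wild-type mice at postnatal day 8 (P8), imaged on the same slide with the same genes, is set beside the fetal liver where stated.

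Neutrophils arise from progenitors that first fill their azurophil granules with serine proteases and myeloperoxidase, at the promyelocyte stage, and later make the proteins of secondary and tertiary granules while they leave the cell cycle. The embryonic liver is the main site of blood formation in midgestation, and most of its blood cells are erythroid. Elane encodes neutrophil elastase and Ctsg encodes cathepsin G, both proteases of the azurophil granules, while Fcnb encodes ficolin B, a lectin of the granulocyte lineage. S100a9 encodes a subunit of calprotectin, which accumulates as neutrophils mature. The progenitors were described against all other cells, and then by their S100a9 count. There was 1 section, and cells of a section are not replicates of a condition, so no test was possible. Intervals are 95% intervals of counting error, and differences between pieces of tissue are given as values.

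The cells that met the rule carried Elane most often. Elane was detected in 2653 of the 2691 progenitors, Fcnb in 1997 and Ctsg in 1473. All 3 genes were detected together in 945 progenitors, exactly 2 in 1542 and a single one in 204. Of the latter, 166 held Elane alone, 33 held Fcnb alone and 5 held Ctsg alone. Levels of the rule genes describe the selection and are no finding. A progenitor held on average 9.11 transcripts of Elane, 3.07 of Fcnb and 1.72 of Ctsg.

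The limit of 5 transcripts cut through a continuous distribution. There were 548 cells with 4 transcripts of the rule genes, 357 with 5 and 280 with 6. Mpo, which encodes myeloperoxidase and was not used by the rule, stood at 4.39 transcripts per cell just outside the limit and at 5.17 just inside it. Cells with at least 15 transcripts of the rule genes numbered 914 and held 12.5 transcripts of Mpo. S100a9 went from 1.18 transcripts per cell at 4 rule transcripts to 1.42 at 5 and 4.51 at 15 or more.

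Progenitors were slightly deeper than the other cells and had slightly larger nuclei. The median number of transcripts was 186 in progenitors and 167 in other cells. The rule is a minimum count, so deeper cells meet it more easily, and the rule transcripts are part of this depth. How much of the differences in depth and area the rule sets was not tested. The median nuclear area was 28.9 µm² (95% interval of the median 28.2 to 29.6) against 26.6 µm² (26.5 to 26.6). Levels are given as counts per 1000000 (CPM), the summed counts of a gene over the summed counts of all panel genes in the same cells.

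The progenitors carried genes of the neutrophil lineage beyond those that defined them. Mpo reached 43151 CPM in progenitors against 2298 CPM in other cells, a log2 ratio of 4.23 (95% interval 4.21 to 4.25). Lists were counted over all their genes on the panel, with no minimum of counts, so that no gene entered or dropped out by its level in the progenitors. Of the 474 panel genes outside the rule, 12.7% were at least 2-fold higher and 19.2% at least 2-fold lower than in other cells. The list of later neutrophil genes had 10 of 12 genes at least 2-fold higher, with a median log2 ratio of 3.35 against -0.11 over all panel genes with a ratio. Genes outside the lists were named only with at least 100 counts in the progenitors, which 206 genes had. This minimum keeps genes through the group where they are high, and the shares among these 206 genes, 24.3% higher and 21.8% lower, 46.1% in all, are given as a description. The plot of panel genes by list shows the myeloid lists mostly to the right of 0 and the erythroid, macrophage and endothelial lists mostly to its left.

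**Figure D1:**
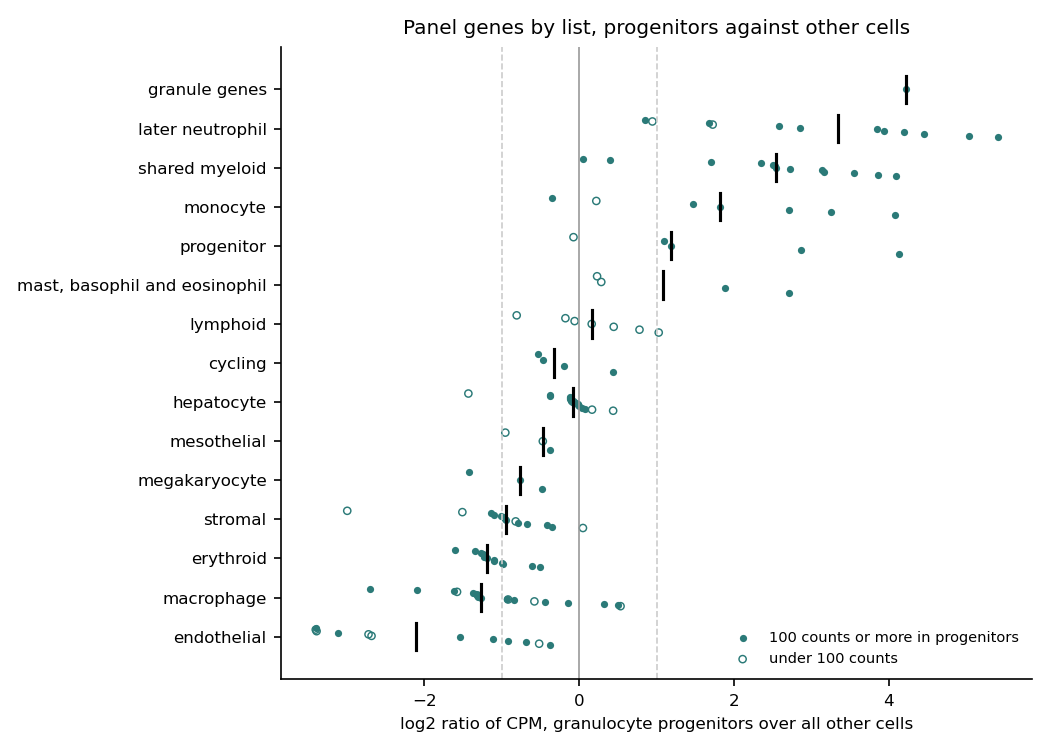
Each point is a panel gene of a list, placed by its log2 ratio of CPM in granulocyte progenitors over all other cells of the E14.5 fetal liver. Filled points have at least 100 counts in the progenitors and open points fewer. Black bars mark the list medians, dashed lines mark a 2-fold difference, and the rule genes Elane, Ctsg and Fcnb are left out, so that Mpo at 4.23 is the only point of the granule list.

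Among the genes with at least 100 counts, Abca13, which encodes a lipid transporter, stood highest with 1497 CPM in progenitors against 27.04 CPM in other cells, a log2 ratio of 5.79 (5.63 to 5.95). Pglyrp1, a peptidoglycan recognition protein stored in neutrophil granules, stood at 9139 CPM in progenitors against 214 CPM in other cells, and Hp, which encodes haptoglobin, at 11562 CPM against 538 CPM. Among receptors, Csf3r, the receptor for granulocyte colony-stimulating factor, had a log2 ratio of 4.46 (4.40 to 4.52), and Cxcr2, a chemokine receptor that guides neutrophils out of the marrow, 4.20 (4.07 to 4.33). The surface antigen gene Ly6c1 stood at 5.28 and Itgam, which encodes the integrin CD11b, at 4.10. S100a9 itself stood at 5.04 (5.00 to 5.09).

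Some genes of late neutrophil stages had few counts. Mmp9, which encodes gelatinase B of the tertiary granules, and Asprv1 did not reach 2-fold. Mmp9 stood at 235 CPM in progenitors against 130.3 CPM in other cells, and Asprv1 had 44 counts in all 2691 progenitors and a log2 ratio of 0.95 (0.48 to 1.38). Mmp8, the neutrophil collagenase, had 110 counts. Ly6g, a surface antigen of mature mouse neutrophils, had 77 counts and a log2 ratio of 1.73 (1.37 to 2.06).

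Most genes of the progenitor and monocyte lists were also higher in these cells. Of 5 progenitor genes 4 were at least 2-fold higher, namely Emb, a cell adhesion protein (log2 ratio 4.13), Cd34 (2.87), Kit, the stem cell factor receptor (1.18), and Cd93 (1.10), while Ly6a stood at -0.07. Of 7 monocyte genes, 5 were at least 2-fold higher, among them F13a1, which encodes the A chain of coagulation factor XIII, at 4.08 and Ms4a6c at 3.26, while Clec4a3 stood at -0.35 and S100a4 at 0.22. Of 13 genes shared by myeloid cells, 11 were at least 2-fold higher, with Plbd1 at 0.05 and Ctss at 0.40 as the others. Of 4 genes of mast cells, basophils and eosinophils 2 were at least 2-fold higher, Cpa3 at 2.71 and Prg2 at 1.89. Of 7 lymphoid genes 1 was, Cd8a with 17 counts, and none reached 100 counts in the progenitors.

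Of the 4 cycling genes 3 stood below the level of other cells and Stmn1 above it, none by 2-fold. Summed over Cenpf, Ube2c, Stmn1 and Diaph3 they reached 47394 CPM in progenitors and 44634 CPM in other cells. Cenpf and Ube2c, genes of mitosis, stood at -0.53 and -0.47 on the log2 scale, Diaph3 at -0.20, and Stmn1, which encodes the microtubule regulator stathmin, at 0.43, with a list median of -0.33.

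Erythroid, macrophage and endothelial genes were mostly lower but not absent. Of 13 erythroid genes 10 were at least 2-fold lower, and the erythroid list still summed to 235997 CPM in progenitors against 475527 CPM in other cells. Of 19 macrophage genes 10 were at least 2-fold lower, with Mrc1, the mannose receptor, at -2.71 and Maf, a macrophage transcription factor, at -2.10, while Cd68 stood at 0.50 and Adgre1 at 0.32. Of 12 endothelial genes 8 were at least 2-fold lower, among them Oit3 at -3.41, Clec14a at -3.41 with 58 counts in the progenitors, Lyve1, a receptor for hyaluronan, at -3.40 with 65 counts, and Kdr, a receptor for vascular endothelial growth factor, at -3.12. Of 17 hepatocyte genes 1 was at least 2-fold lower, Ttc36 with 1 count in the progenitors, and the list summed to 61533 CPM in progenitors against 64084 CPM in other cells. A segmented cell is a stained nucleus with an expanded outline, so that transcripts of a neighbor can fall inside it, and the part of these transcripts in the levels was not tested. Of all transcripts counted in progenitors 57.9% lay over the nucleus. The figure was 61.8% for Elane and 63.0% for Mpo. It was 57.4% for the erythroid gene Slc4a1, 53.6% for Hbb-bt and 44.9% for the macrophage gene C1qb. With transcripts over the nucleus alone, the erythroid list stood at 233341 CPM in progenitors against 512662 CPM in other cells.

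A large part of the Mpo and S100a9 transcripts lay outside the progenitors. The progenitors held 31.8% of the Mpo transcripts of the section, 43.7% of those of S100a9 and 26.9% of those of Stfa2l1. For the rule genes the share is largely set by the rule and no finding, at 71.1% of 34482 transcripts of Elane, 78.8% for Ctsg and 68.2% for Fcnb. Of the Mpo transcripts, another 22.3% lay in the 9738 cells joined to a progenitor by an edge of up to 20 µm, at 1.66 per cell against 0.293 in the remaining cells.

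The progenitors differed in their S100a9 count. S100a9 was 0 in 1048 progenitors, 1 in 382 and at least 2 in 1261, which is 46.9% (45.0 to 48.8). Among cells outside the rule, at least 2 transcripts of S100a9 were found in 1642 of 114638, or 1.43%. The median depth was 197.5 transcripts in progenitors with S100a9 at 0 and 174 in those with at least 2, so the latter were the shallower ones. After each progenitor was thinned to 100 transcripts, with the shallower ones left out, 34.6% of 2411 had at least 2. S100a9-positive hereafter means at least 2 transcripts and S100a9-negative means 0 transcripts, which at this depth does not show that the cell lacked S100a9 RNA.

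**Figure D2:**
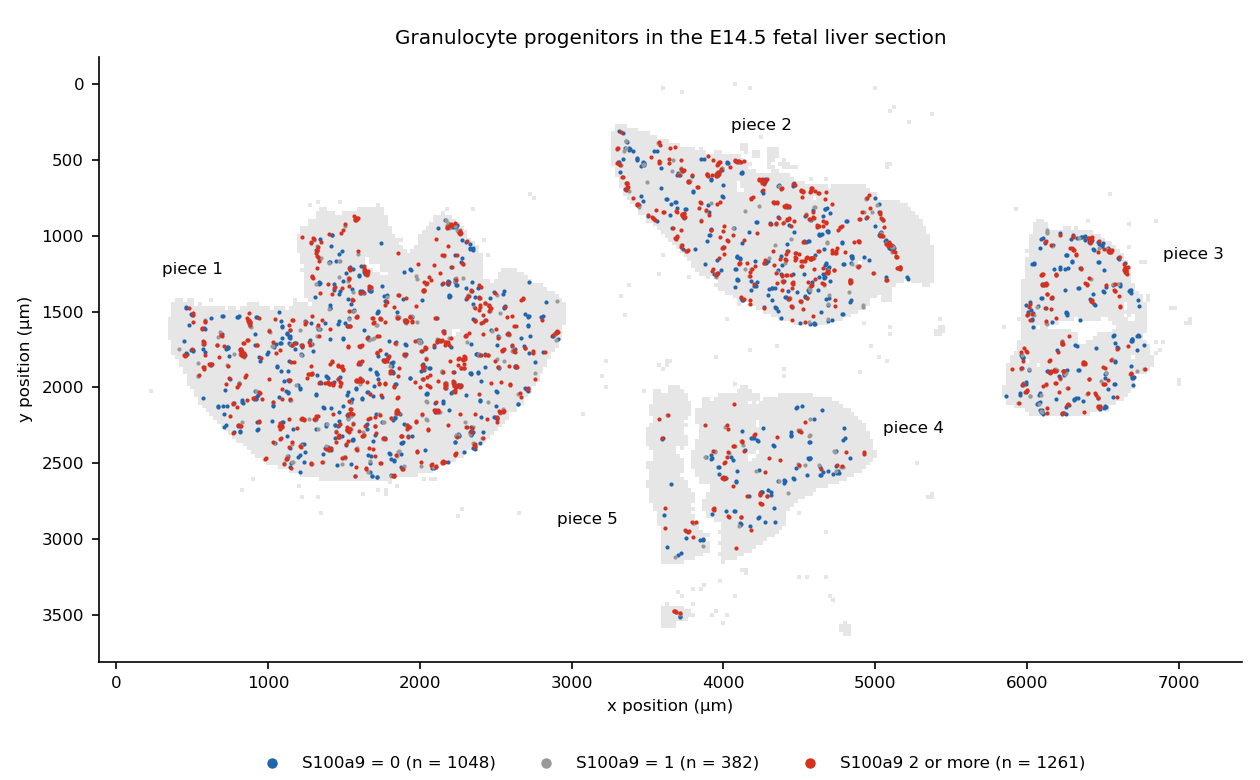
Position of the 2691 granulocyte progenitors in the E14.5 section, in µm, colored by S100a9 count, over the outline of all cells in gray. S100a9-positive progenitors (1261) and S100a9-negative ones (1048) occur in all 5 pieces of tissue, and parts of the outline hold no progenitor.

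The S100a9-positive progenitors carried more of the genes that neutrophils make later. The later neutrophil list without S100a9 summed to 41375 CPM in S100a9-positive and 12565 CPM in S100a9-negative progenitors, a log2 ratio of 1.72 (1.66 to 1.78). Of the 11 genes 8 were at least 2-fold higher and none was at least 2-fold lower, with no minimum of counts. Over all 476 panel genes without S100a9, 9.45% were at least 2-fold higher and 11.8% at least 2-fold lower, and 21 genes at 0 in a group were not called. The median log2 ratio was 1.66 for the list and -0.14 over all panel genes with a ratio. Of these 8, Asprv1 was counted 36 times against 5 and Ly6g 51 times against 21. The list members that did not reach 2-fold were Csf3r, at 6549 CPM against 6808 CPM and a log2 ratio of -0.06 (-0.16 to 0.05), Cxcr2 at 0.34 (0.12 to 0.57) and Mrgpra2a at 0.74 (0.43 to 1.05). At least 100 counts over both groups together were found for 202 genes, of which 7.92% were at least 2-fold higher and 4.95% at least 2-fold lower, 12.9% in all. Genes outside the lists were named from these 202.

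Among these 202 genes, the highest ratios included a pair of stefin genes. Stfa2l1, a stefin-type inhibitor of cysteine proteases, was counted 2867 times in S100a9-positive and 115 times in S100a9-negative progenitors, at 11854 CPM against 525 CPM, a log2 ratio of 4.50 (4.23 to 4.78). Cstdc4, another gene of this family, stood at 25353 CPM against 1992 CPM, a log2 ratio of 3.67 (3.53 to 3.81). Their transcription starts lie 27401 bases apart on chromosome 16 and both genes run on the plus strand. The promoter windows of these genes, both higher in the S100a9-positive group, are shown beside those of the split gene S100a9 and of Elane, the most frequent rule gene. Each window runs from 250 bases before the transcription start to 50 bases after it (RefSeq sequence, build GRCm38.p6), 5′ to 3′ on the strand of the gene. Capitals mark matches, on either strand, to the C/EBP core TTGCNNAA or the PU.1 core GAGGAA, letters bound by transcription factors of myeloid cells.
Stfa2l1, chr16:36156561-36156860, plus strand: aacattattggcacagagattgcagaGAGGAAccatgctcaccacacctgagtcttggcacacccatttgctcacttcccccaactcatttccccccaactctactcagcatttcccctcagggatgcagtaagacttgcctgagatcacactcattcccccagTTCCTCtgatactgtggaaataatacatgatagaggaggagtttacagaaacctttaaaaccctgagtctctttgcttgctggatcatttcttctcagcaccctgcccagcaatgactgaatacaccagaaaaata
Cstdc4, chr16:36183962-36184261, plus strand: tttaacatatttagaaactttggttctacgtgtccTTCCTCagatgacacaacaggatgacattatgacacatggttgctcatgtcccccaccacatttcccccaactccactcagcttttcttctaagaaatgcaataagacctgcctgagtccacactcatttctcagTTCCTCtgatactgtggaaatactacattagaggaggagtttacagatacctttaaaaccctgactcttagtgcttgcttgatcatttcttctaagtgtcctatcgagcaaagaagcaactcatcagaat
S100a9, chr3:90695672-90695971, minus strand: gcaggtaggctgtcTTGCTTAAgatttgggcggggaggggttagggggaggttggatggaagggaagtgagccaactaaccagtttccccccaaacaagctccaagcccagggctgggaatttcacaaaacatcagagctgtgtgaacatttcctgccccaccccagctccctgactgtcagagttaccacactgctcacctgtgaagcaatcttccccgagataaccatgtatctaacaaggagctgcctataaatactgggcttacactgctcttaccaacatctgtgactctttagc
Elane, chr10:79886062-79886361, plus strand: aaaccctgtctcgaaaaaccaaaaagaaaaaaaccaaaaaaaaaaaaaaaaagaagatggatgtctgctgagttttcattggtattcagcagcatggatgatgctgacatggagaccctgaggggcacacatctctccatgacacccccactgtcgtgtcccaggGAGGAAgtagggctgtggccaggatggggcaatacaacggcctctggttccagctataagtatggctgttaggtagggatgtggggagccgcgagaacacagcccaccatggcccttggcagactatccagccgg
The Stfa2l1 and Cstdc4 windows each held 2 matches to GAGGAA and none to TTGCNNAA. Elane held 1 match to GAGGAA, and S100a9 held 1 match to TTGCNNAA. Over all 32851 promoter windows of the same length, 28.3% held GAGGAA and 10.8% held TTGCNNAA, so that such matches are frequent and describe only these letters. Aligned end to end, the Stfa2l1 and Cstdc4 windows were identical at 71.1% of 311 columns. The probe sequences were not used here, and whether probes of 1 stefin gene also detect another was not tested.

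Of the 202 genes, 16 were at least 2-fold higher in the S100a9-positive progenitors. Besides the stefin genes and the rule gene Fcnb, these were Pglyrp1, Abca13, C5ar1, Il1r2, Mmp9, Cd300lf, Ifitm6, Itgam, Ncf4, Mmp8, Pi16, Gatm and Bst1, the last 3 named after their values were seen. Pglyrp1 stood at 16625 CPM against 2289 CPM, a log2 ratio of 2.86 (2.73 to 3.0), and Abca13 at 2.41 (2.11 to 2.72). C5ar1, the receptor for complement C5a, was counted 157 times against 11, a log2 ratio of 3.69 (2.81 to 4.72), Il1r2, the decoy receptor for interleukin 1, 109 times against 10, and Mmp9 107 times against 12. C5ar1, Il1r2, Mmp9, Cd300lf, Mmp8 and Bst1 had under 100 counts in the S100a9-negative group, so that they met the minimum through the group where they are high, and low counts leave wide intervals. Mmp9 was detected in 3.33% of S100a9-positive and 1.15% of S100a9-negative progenitors, so its counts lay in few cells, which counting intervals do not cover. Mmp8 was counted 71 times against 30. Cd300lf, an inhibitory receptor, had a log2 ratio of 2.29 and Ifitm6 1.66.

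From the shared myeloid list, 4 of 13 genes were at least 2-fold higher, C5ar1, Cd300lf, Itgam at 1.78 and Ncf4, which encodes a subunit of the phagocyte oxidase, at 1.13. Cybb, the membrane subunit of the same oxidase, stood at 0.42 and Rac2, its GTPase partner, at 0.00.

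Mpo, the azurophil granule gene that the rule did not use, was lower in the S100a9-positive group at -0.25 (-0.29 to -0.21). Elane was at 0.25 (0.21 to 0.29) and Ctsg at -0.68 (-0.77 to -0.59). Fcnb stood at 25320.2 CPM in S100a9-positive and 6123 CPM in S100a9-negative progenitors, a log2 ratio of 2.05. Elane, Ctsg and Fcnb chose the cells, so a cell low in one of them had to be higher in another, and their ratios are a description. So are sums that hold them. Elane, Ctsg and Mpo together stood at -0.05 (-0.08 to -0.03), whose sign turned with a total without the rule genes, S100a9 and Hbb-bt (0.026) and with thinning (0.062), and the granule list of 4 genes, with Fcnb, stood at 0.20 (0.17 to 0.22). Of the 33 progenitors with Fcnb alone 93.9% were S100a9-positive, and of the 166 with Elane alone 13.9%.

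Cd34 and the summed progenitor list were lower in the S100a9-positive group. Within the S100a9-negative group, Cd34 and Emb were higher in cells with monocyte genes, as given below. Cd34, a surface glycoprotein of stem and progenitor cells, stood at 1567 CPM against 6008 CPM, a log2 ratio of -1.94 (-2.11 to -1.77). Kit stood at -0.61 (-0.72 to -0.50), Cd93 at -0.85, Emb at -0.53 and Ly6a at 0.36. Of 5 progenitor genes, Cd34 was the 1 at least 2-fold lower, and the list summed to 25804 CPM against 41858 CPM. Cpa3, a mast cell carboxypeptidase, had the lowest ratio of the 202 genes, -2.26 (-2.51 to -2.01), but was the 1 of 4 genes of mast cells, basophils and eosinophils at least 2-fold lower, with Prg2 at 0.04 and a list median of -0.01. The transcription factor gene Ikzf2 stood at -1.84 and Satb1, a chromatin organizer, at -1.30.

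Cycling genes were lower by a smaller amount. The cycling list summed to 42152 CPM in S100a9-positive and 52454 CPM in S100a9-negative progenitors, a log2 ratio of -0.32 (-0.35 to -0.28). Each of its 4 genes was lower, between -0.25 for Diaph3 and -0.43 for Ube2c, and none reached 2-fold. In the same comparison the erythroid list stood at -0.37 (-0.39 to -0.35), with its 13 genes between -0.59 and -0.21. The median over all panel genes with a ratio was -0.14. The part of transcripts from neighboring cells in the cycling counts was not tested.

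Several monocyte genes were lower as well. Of 7 monocyte genes, 3 were at least 2-fold lower, Ms4a6c at -1.65 (-1.79 to -1.52), Ccr2, a chemokine receptor of inflammatory monocytes, at -1.26 (-1.45 to -1.08) and Ms4a6b at -1.03. F13a1 stood at -0.89 (-0.97 to -0.80) and Mpeg1, which encodes perforin-2, at -0.25. P2rx7, an ATP-gated channel, stood at -1.34, and Psmb8, a subunit of the immunoproteasome, at -1.38. P2rx7, counted 58 times against 133, and Ms4a6b, counted 72 times against 133, met the minimum through the S100a9-negative group, where they are high.

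Levels differed step by step over the S100a9 counts rather than at 1 limit. Pglyrp1 stood at 2289 CPM at an S100a9 count of 0, 4951 at 1, 10891 at 2 to 4, 18901 at 5 to 9 and 25846 at 10 or more. Cd34 went the other way, from 6008 CPM through 3848, 1889 and 1374 to 1147. Mpo was lowest in the middle, with 47510.5 CPM at 0, 36830.1 at 2 to 4 and 45547 at 10 or more. The erythroid list was lower at higher S100a9 counts too, with 263633 CPM at 0 and 144538 CPM at 10 or more, so that the part of the counts left to other genes was not the same in these groups.

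**Figure D3:**
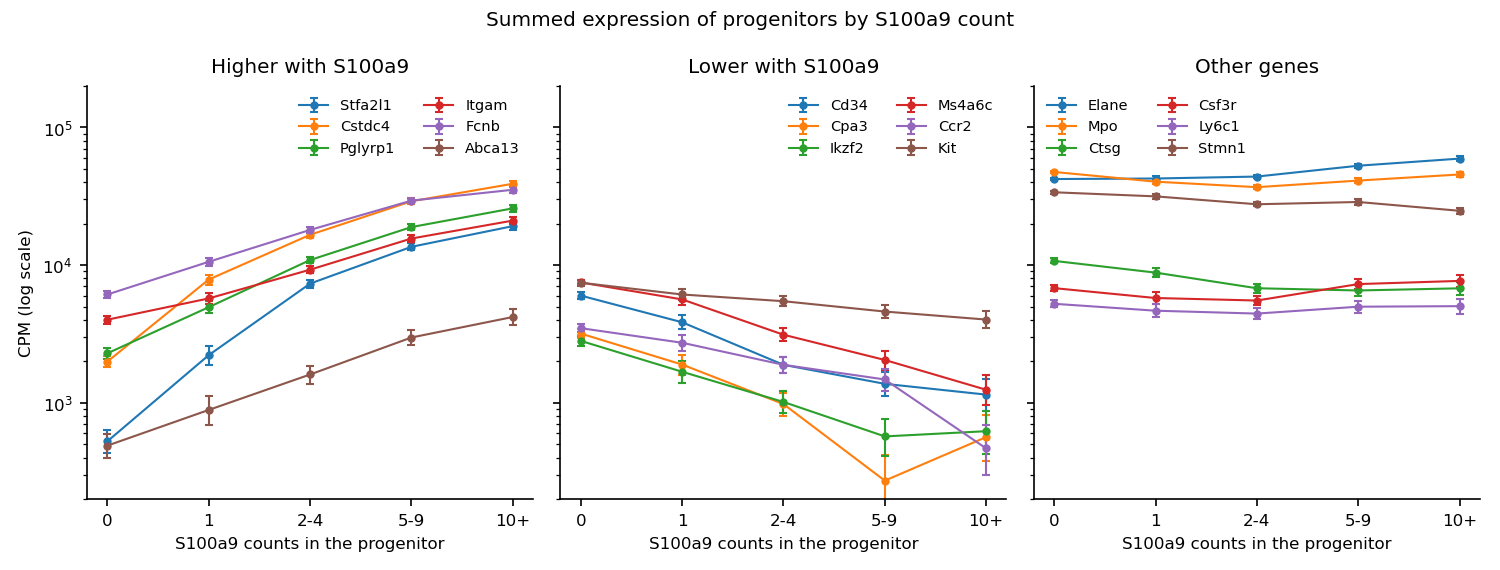
Summed CPM (log scale) of selected genes in granulocyte progenitors grouped by S100a9 count, with 1048, 382, 620, 435 and 206 cells from left to right and bars for the 95% Poisson interval. Pglyrp1 goes from 2289 to 25846 CPM and Cd34 from 6008 to 1147 CPM, while Mpo goes from 47510.5 through 36830.1 to 45547 CPM.

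Cell and nuclear size did not follow S100a9 in 1 direction. The median nuclear area was 30.1 µm² (29.0 to 31.0) in S100a9-negative and 27.4 µm² (26.6 to 28.7) in S100a9-positive progenitors. By S100a9 count, the median was 24.6 µm² at 5 to 9 transcripts and 37.3 µm² in the 206 cells with 10 or more. The median number of transcripts was 163 at 5 to 9 and 237 at 10 or more. The part of cell area and depth in an S100a9 count was not tested.

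The S100a9-negative progenitors were not uniform. At least 2 transcripts of the monocyte genes Ms4a6c and Ccr2 together were found in 346 of 1048 S100a9-negative progenitors (33.0%) and in 141 of 1261 S100a9-positive ones (11.2%). At 100 transcripts per cell, the shares were 22.4% and 5.99%. Other cells had such counts in 2.18%. This pair of genes was chosen after its values were seen. Within the S100a9-negative group, the 346 cells were set beside the 535 with no transcript of either gene. F13a1 stood at 24871 CPM against 6645 CPM, Mpeg1 at 7601 CPM against 1174 CPM, Cybb at 5838 CPM against 709.9 CPM and Ctss, a lysosomal protease, at 5812 CPM against 709.9 CPM, all higher in the 346 cells. Cd34 was higher in them too, at 9402 CPM against 3133 CPM, as was Emb, at 36304 CPM against 15969 CPM. Cd93 stood at a log2 ratio of 0.89 (0.64 to 1.14) and Kit at 0.08 (-0.08 to 0.23). Progenitors with 2 to 4 S100a9 transcripts held 16822 CPM of Emb and 1889 CPM of Cd34. Of the later neutrophil genes, Pglyrp1 was lower in the 346 cells, at 1086 CPM against 3228 CPM. Ifitm6 at 3.81 (2.96 to 4.80), Cxcr2 at 0.90 (0.52 to 1.29) and Csf3r at 0.70 (0.54 to 0.86) were higher. Mrgpra2a stood at -0.49 (-1.11 to 0.12). Elane, which the rule used, was at 40685 CPM against 41470.2 CPM, a log2 ratio of -0.03 (-0.09 to 0.04), which is a description. Mpo, which the rule did not use, was higher in the 346 cells, at 55950 CPM against 40259 CPM. Its log2 ratio was 0.47 (0.41 to 0.54). Erythroid genes were lower in the 346 cells, with Slc4a1 at 25407 CPM against 39833 CPM, and the hepatocyte gene Hpx stood at -1.10. The part of the counts left to other genes was thus not the same. The 346 cells were also picked by a minimum count, which deeper cells meet more easily, and the part of this in the ratios was not tested.

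Cells outside the rule also carried S100a9. Of the 1642 cells with at least 2 transcripts of S100a9 and fewer than 5 of the rule genes, 44.4% held none of the rule genes. They held 2.19 transcripts of Stfa2l1 per cell, close to the 2.27 of the S100a9-positive progenitors, but 1.46 of Mpo, against 7.68 per S100a9-positive progenitor. Mmp9 was at 0.632 transcripts per cell in them and at 0.0849 in S100a9-positive progenitors. Of these cells 62.1% lay within 20 µm of a progenitor, compared with 25.8% of all cells outside the rule.

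The 5 pieces of tissue, separated after the map was seen, gave values for the same comparisons. From piece 1 to piece 5 they held 57499, 27277, 14400, 13267 and 4052 cells. Progenitors made up 2.43% of the cells in piece 1, 2.5% in piece 2, 2.78% in piece 3, 1.24% in piece 4 and 0.691% in piece 5. The intervals of the first 3 pieces overlapped, and pieces 4 and 5 lay below them. The share of S100a9-positive progenitors was 47.4%, 51.3%, 43.2%, 33.9% and 39.3% in the same order, with an interval of 21.5 to 59.4 in piece 5, which held 28 progenitors.

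The S100a9 split had the same direction in every piece for the later neutrophil, progenitor and cycling lists. The log2 ratio of the later neutrophil list lay between 1.37 and 1.96, that of the progenitor list between -1.11 and -0.44, and that of the cycling list between -0.38 and -0.18, though its interval in piece 5 included 0. Cstdc4 lay between 3.33 and 4.86, Pglyrp1 between 2.04 and 3.18 and Cd34 between -2.58 and -1.33. The monocyte list differed more from piece to piece, with -1.12, -1.22, -0.62, -0.02 and -0.47 in pieces 1 to 5. In piece 4 its interval, -0.25 to 0.20, included 0. The sum of Elane, Ctsg and Mpo was above 0 in piece 3, at 0.07, and below 0 in the others.

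**Figure D4:**
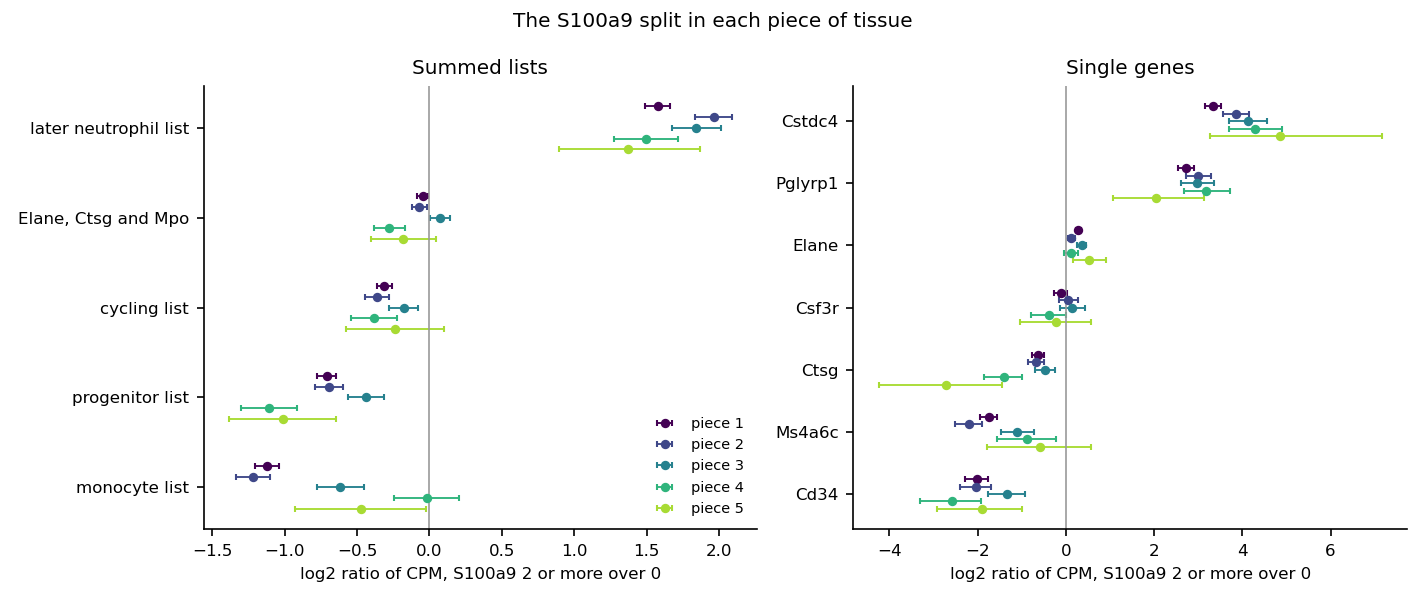
Log2 ratio of CPM in S100a9-positive over S100a9-negative progenitors in each of the 5 pieces of the E14.5 section, for summed lists and single genes, with 95% counting intervals. The later neutrophil list, Cstdc4 and Pglyrp1 lie above 0 and the progenitor list and Cd34 below 0 in every piece, while the monocyte list reaches -0.02 in piece 4.

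Progenitors lay beside each other. Among the Delaunay neighbors of progenitors, that is cells joined by the triangulation of all cell centers with edges of up to 400 µm, 23.0% were progenitors, compared with 1.82% among neighbors of other cells, a log2 ratio of 3.66. A close pair can share transcripts across an outline or be 1 cell that was cut in the segmentation, and their part was not tested. A cell enters several neighbor pairs, so that intervals over pairs are too narrow. With edges of 10 to 30 µm alone, chosen after the data were seen, the ratio was 2.86. The median distance to the nearest other progenitor was 7.25 µm. Joined by edges of up to 20 µm, 684 progenitors stood alone, and 14 groups held 10 or more, with 17 in the largest.

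Neighboring progenitors tended to match in S100a9. Of the neighbor pairs that led from an S100a9-positive progenitor to another progenitor, 67.5% ended on an S100a9-positive one. From S100a9-negative progenitors the share was 26.8%, a log2 ratio of 1.33 (1.16 to 1.51). These are shares of pairs, counted from both sides, so this interval is too narrow as well. With edges of 10 to 30 µm the ratio was 0.79. In pieces 1 to 4 the first share lay between 64.5% and 71.9% and the second between 10.1% and 28.6%. Piece 5, with few pairs, ran the other way, at 25% and 42.9%. Cells outside the rule next to an S100a9-positive progenitor alone held 8838 CPM of the later neutrophil list with S100a9, compared with 2874 CPM next to an S100a9-negative one alone, so transcripts of this list also differed in the other cells nearby.

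C1q-positive cells were less frequent next to progenitors than next to other cells. Cells with at least 3 transcripts of C1qa, C1qb and C1qc made up 8.22% of the neighbors of progenitors and 13.0% of those of other cells. The log2 ratio was -0.66 (-0.74 to -0.59), again with an interval over pairs. The ratio lay between -1.25 and -0.48 in the 5 pieces, and was -0.27 when all cells within 20 µm were counted as neighbors. Next to S100a9-negative progenitors the share was 8.98% and next to S100a9-positive ones 7.77%. Among the progenitors themselves 5.24% had such counts, compared with 12.9% of other cells. Progenitors made up 23.0% of the neighbors of progenitors and so enter the ratio, and their part in it was not tested.

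Cells next to progenitors also differed in other genes. The 9738 cells joined to a progenitor by an edge of up to 20 µm held 6879.5 CPM of endothelial genes against 15535 CPM in the remaining cells, and 13057 CPM of stromal genes against 20019 CPM. Hepatocyte genes were higher, at 76177 CPM against 62906 CPM. Mpo, which the rule did not use, stood at 8932 CPM in these cells against 1651 CPM. The rule gene Elane stood at 3131 CPM in them against 199 CPM. These cells can include some just under the limit of the rule and some that share transcripts with a progenitor across an outline. Their part was not tested.

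Progenitors were unevenly spread over the section. In 197 squares of 200 µm with at least 100 cells, their share ran from 0 to 8.43% with a median of 2.13%, and 11 squares held none. The 2820 cells of those 11 squares held 110556 CPM of stromal genes, compared with 16153 CPM in the other squares, and 334956 CPM of erythroid genes against 473913 CPM. By distance from the edge of the tissue, the share was 3.05% within 25 µm, 1.74% between 50 and 100 µm and 2.46% beyond 200 µm. In 36 squares with at least 20 S100a9-positive and S100a9-negative progenitors together, the S100a9-positive part of these ran from 26.9% to 89.3%.

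In P8 bone marrow the same rule found 2828 progenitors among 52594 cells, or 5.38% (5.19 to 5.57). Their median depth was 142 transcripts, below the 186 of the fetal liver. S100a9-positive cells made up 66.9% of them, and 55.6% of 2194 after thinning to 100 transcripts. Mpo stood at 44339.9 CPM in progenitors of the bone marrow and at 43151 CPM in those of the fetal liver. Cd34 was higher in the fetal liver, at 3701 CPM against 1173 CPM, and Stfa2l1 was lower, at 5882 CPM against 18479 CPM. Mmp8 stood at 206 CPM against 2039.9 CPM. Tissue and age cannot be told apart in these sections, and with 1 section of each the differences were not tested. The E13.5 fetal liver, a section of 5285 cells imaged with another panel without S100a9, held 13 cells that met the rule.

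The split by S100a9 had larger ratios for several genes in the fetal liver than in the bone marrow. In the bone marrow it set 1891 S100a9-positive beside 495 S100a9-negative progenitors. S100a9 stood at 28025 CPM in progenitors there and at 14729 CPM in those of the fetal liver, and depth differed too. A count of 0 therefore need not mark the same cells in both tissues, and these ratios were not compared at equal depth. Stfa2l1 stood at 4.50 in the fetal liver and 2.23 (2.08 to 2.39) in the bone marrow, Pglyrp1 at 2.86 and 1.7 (1.54 to 1.87), and Cd34 at -1.94 and -0.55 (-0.87 to -0.21). Cpa3 stood at -0.24 (-0.56 to 0.10) and Ikzf2 at 0.05 (-0.56 to 0.71) in the bone marrow, compared with -2.26 and -1.84 in the fetal liver. Other genes had the larger ratio in the bone marrow. Cxcr2 stood at 0.34 in the fetal liver and 2.42 (1.88 to 3.02) in the bone marrow, Csf3r at -0.06 and 0.65 (0.46 to 0.86), and Mmp8, with few counts in the fetal liver, at 1.10 (0.46 to 1.77) and 2.13 (1.68 to 2.61). Itgam was close in both, at 1.78 and 1.72. The rule gene Ctsg stood at -0.68 and -0.58, but it chose the cells in both tissues, so these ratios are a description.

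**Figure D5:**
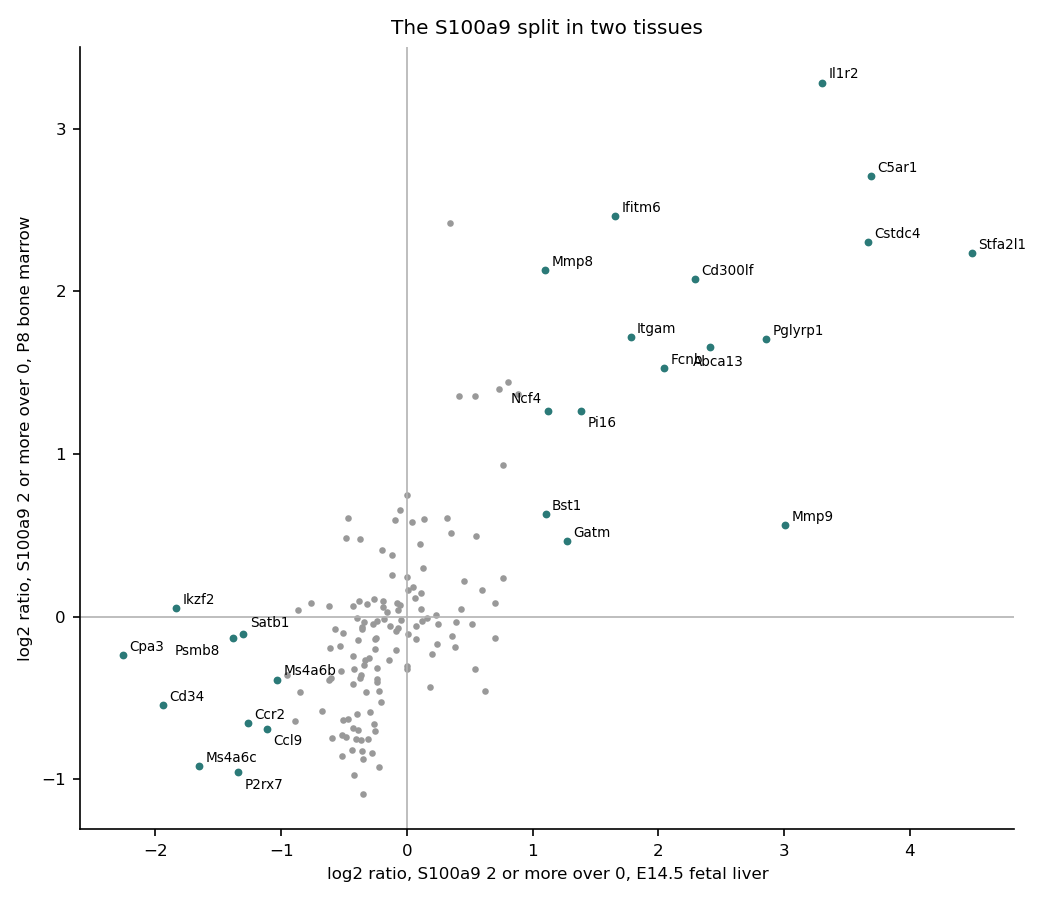
Each point is a panel gene compared in both tissues, which not all panel genes were. It is placed by its log2 ratio of CPM in S100a9-positive over S100a9-negative progenitors in E14.5 fetal liver (x axis) and P8 bone marrow (y axis). Stfa2l1 (4.50 and 2.23), Cd34 (-1.94 and -0.55) and Ikzf2 (-1.84 and 0.05) lie farther from 0 on the x axis than on the y axis.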

How the data were processed

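Sections of 5 µm were imaged on the Xenium platform. The authors deposited raw transcript counts for each gene in each segmented cell, the position and area of every cell, and each decoded molecule with its quality score. The deposited run description names Xenium Onboard Analysis, whereas the methods of the study name Space Ranger, and cells were expanded nuclei. Counts rebuilt from the deposited transcripts at a quality score of at least 20 equaled the deposited counts in all entries, and 97.2% of 21563021 transcripts lay in a cell. The most frequent of 20 negative control probes had 105 counts, and the section held 20952143 gene transcripts. Between 0 and 6 cell names were shared with each other section.

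No cell was filtered out, doublets were not called, and transcripts of neighbors were not removed. Gene counts were summed per group and given as CPM of all gene counts. Ratios carry exact conditional Poisson intervals and shares exact binomial intervals (95%, counting error only), computed in Python 3.11.15 with scipy 1.17.1 and tested on simulated data. Lists were counted over all their panel genes with no minimum of counts, a choice made after seeing the data, and genes named outside the lists needed 100 counts. A 2-fold ratio stood in for a test. Named genes were those of the gene lists, the 10 highest ratios against other cells, and the 8 highest and 8 lowest by S100a9. Beyond these, Pi16, Gatm and Bst1 were named after their values were seen, and Mgll and Il4ra for opposite directions in the tissues. Cells were thinned to 100 transcripts (seed 1) for shares across depths. Pieces of tissue were connected squares of 50 µm with at least 5 cells. The members and lists were chosen with earlier results of these data known. Alternatives were a limit of 10 rule counts, transcripts over the nucleus, counts per cell, a total without the rule genes, S100a9 and Hbb-bt, a minimum depth, other S100a9 limits, thinning, other neighbor definitions and either side of the section.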

Additional observations from a re-analysis of the deposited data

Results flagged for a closer look

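For 5 of the 156 genes measured in both tissues, the ratio of S100a9-positive over S100a9-negative progenitors had opposite directions in the fetal liver and in P8 bone marrow, with both counting intervals off 0. The difference between the tissues was not tested, since each is 1 section, and depth and S100a9 level differed between them. On the log2 scale, Mgll stood at 0.19 in the fetal liver and -0.43 in the bone marrow, Lst1 at -0.20 and 0.41, and Il4ra at -0.37 and 0.47. The stromal genes Lum and Pdgfrb stood at -0.47 and 0.61, and at -0.48 and 0.49. None of these ratios reached 2-fold.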

How the results depend on the processing

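The only main comparison that turned direction under the alternatives was that of Elane, Ctsg and Mpo by S100a9, from -0.05 on the log2 scale to 0.026 with a total without the rule genes, S100a9 and Hbb-bt, 0.063 with S100a9-positive set at 5 or more, 0.062 after thinning and 0.0062 without the progenitors with at least 2 transcripts of Ms4a6c and Ccr2, the last chosen after seeing the data. With at least 10 rule transcripts, the share of progenitors was 1.27%, Mpo against other cells 4.30, the S100a9-positive share 56.1%, the granule sum -0.20, the later neutrophil list 1.32 and progenitors beside progenitors 3.55. With transcripts over the nucleus alone these were 1.53%, 4.43 for Mpo, -0.24 for the granule sum, 1.35 for the later neutrophil list, -0.37 for the cycling list, 3.54 for progenitors beside progenitors and -0.85 for C1q-positive cells beside them. Cells with at least 100 counts gave a share of 2.43%, 3.44 and -0.56 for both neighbor ratios. Without C1q-positive cells the share was 2.49% and Mpo stood at 4.19. On the left and right side of the section, split at the median cell, the share was 2.45% and 2.13%, and the later neutrophil list 1.59 and 1.86. As counts per cell, Mpo stood at 4.39, the granule sum at -0.18, the later neutrophil list at 1.60 and the cycling list at -0.44. The total without the rule genes, S100a9 and Hbb-bt gave 4.33 for Mpo, 1.80 for the later neutrophil list and -0.24 for the cycling list. An S100a9 limit of 5 gave a share of 23.8% and 2.07 and -0.36 for these lists, a limit of 1 gave 61.1%, 1.49 and -0.26, and thinning gave 34.6%, 1.91 and -0.38. Without the progenitors with Ms4a6c and Ccr2 transcripts the later neutrophil list stood at 1.95. With all cells within 20 µm as neighbors, progenitors beside progenitors stood at 2.46 and C1q-positive cells at -0.27, and with edges of 10 to 30 µm at 2.86 and -0.48. The causes were not tested. The nuclear area by S100a9 moved little, and the counts of genes past 2-fold were 77 to 99 against other cells and 19 to 27 by S100a9 with the minimum of 100 counts. With no minimum of counts per gene, chosen after seeing the data, they were 151 and 101, since more genes were compared. No paired analysis was possible because each condition was 1 section. A median of 186 transcripts per progenitor limits any statement on a gene at 0 in a single cell.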
